A study of Homo sapiens with 18 samples.

Results

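The genes of mRNA export and of the exon junction complex were followed here as newly made RNA in MDA-MB-453 cells. This established line comes from a breast cancer and has luminal features. A list of 36 genes was taken by name: the nuclear cap-binding proteins, the TREX complex and its adaptors, the receptor pair NXF1 and NXT1, TREX-2, the exon junction complex, the UPF proteins and the helicases that release mRNA at the cytoplasmic face of the pore. Of the 36 genes, 34 were matched among 12755 gene IDs, with 319 of 98665 intervals, and 33 of 10191 genes passed a filter on low values. RBM8A and DDX19B were not analysed here, and SARNP had a mean of 6.2 units and was below the filter of 10. The list is by name and function, and no threshold on a measured value entered it. It was, however, chosen with earlier results of these data known.

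Cells received the BET degrader JQ1-VHL or DMSO for 3 hours, and 0.1 mM of 4-thiouridine was present during the final 60 minutes. JQ1-VHL joins a BET bromodomain ligand to a ligand of the VHL ubiquitin ligase, and the sample titles call the drug dBET. After alkylation an incorporated 4-thiouridine is read as C, so reads with T-to-C changes count RNA made while the label was present. There were 3 libraries each of nuclear, cytoplasmic and total polyadenylated RNA under JQ1-VHL and under DMSO, 18 in all. All groups carried the labelling and added Drosophila cells, and cytoplasm was released with digitonin at 1 mg/ml. Nothing in the labels ties replicates to separate cultures, and p-values measure the spread between these samples, which may be technical.

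As background, the cap-binding complex and the TREX complex are loaded on nascent mRNA as it is capped and spliced. TREX recruits adaptors such as ALYREF, which hand the mRNA to the heterodimer of NXF1 and NXT1 for passage through the nuclear pore. The exon junction complex, built on the helicase EIF4A3 with MAGOH or MAGOHB and RBM8A, is deposited upstream of splice junctions, aids export and is read in the cytoplasm by UPF proteins during nonsense-mediated decay.

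The libraries held 1.58 to 6.77 M T-to-C reads, of which 4333 to 24058 belonged to the members. The deposited values are such reads divided by an ERCC factor of each library, called units here, and 1 read was worth 0.470 to 2.75 units. ERCC RNA was added by RNA mass, so a unit is not a value per cell, and in these bulk samples fewer cells and less RNA per cell cannot be told apart. The scale of libraries differed within groups: DMSO cytoplasmic libraries summed to 8.63, 1.80 and 18.7 M units, and DMSO total libraries lay between 2.78 and 10.8 M and DMSO nuclear libraries between 2.33 and 4.86 M. JQ1-VHL nuclear replicate 3 held the fewest reads, and 30.5% of all intervals were at 0 in it. All 9 luminal markers, among them ERBB2, FOXA1 and KRT8, were detected. The basal marker TP63 averaged 5.82 units, and KRT5, KRT14, VIM and ZEB1 were not analysed here. Of the markers of other lineages, COL1A1 averaged 469.6 units and ALB 35.4 units, and their part in the results was not tested. The other markers of that list, COL1A2, PTPRC, CD3E, PECAM1, CDH5 and HBB, were not analysed here.

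Every comparison was made on the deposited scale and again after rescaling, in which each library was divided by the median ratio of its genes to those of the other libraries of its fraction and the fractions were then set against each other in the same way. A rescaled value is therefore set against the typical gene of its fraction. The median gene of all 10191 tested changed by -1.82 (log2) in the nucleus, -0.02 in the cytoplasm and -0.49 in total RNA on the deposited scale, and by -0.11, -0.11 and -0.09 after rescaling. Log2 changes are JQ1-VHL over DMSO, as estimate ± SE, on log2(value + 1), and adjusted p-values are from limma with Benjamini-Hochberg adjustment over all genes tested, called at 0.05.

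In the nucleus, 9 of 33 members fell under JQ1-VHL on the deposited scale and none rose, where 33.7% of all genes tested were called lower and 0.177% higher. The members' share of calls was near that of all genes. The median member changed by -1.68 (log2), against -1.82 for the median gene, and the medians within batches were -2.15, -0.50 and -2.52 for members in batches 1, 2 and 3, and -2.23, -0.72 and -2.42 for all genes. The groups did not overlap in 23 members, all lower under JQ1-VHL, where 71.2% of all genes were lower without overlap and 0.353% higher. The 9 members were MAGOHB and CASC3 of the exon junction core, THOC3 and THOC7 of TREX, the adaptors ALYREF and POLDIP3, ENY2 of TREX-2, ACIN1 and UPF2.

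MAGOHB encodes a near-identical copy of MAGOH, and either protein pairs with RBM8A in the junction core. The gene lies on chromosome 12 from 10604190 to 10613623 on the minus strand (GRCh38). MAGOHB had 1.60, 3.23 and 0 units in JQ1-VHL nuclei, from 3, 5 and 0 reads, against 115, 67.4 and 44.7 units in DMSO nuclei. Every JQ1-VHL library was below every DMSO library. The change was -5.00 ± 1.09 (log2, limma adjusted p = 0.00057) and -5.49, -4.01 and -5.51 within batches 1, 2 and 3. The ratio of JQ1-VHL to DMSO over the summed reads, on the deposited scale, was 0.0208 with a 95% counting interval of 0.00892 to 0.0415. MAGOHB was called without any one of the 6 nuclear libraries. Reads of MAGOHB and MAGOH could be split between the copies, so each value is uncertain to that extent.

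CASC3, a component of the junction core, had 31.4, 52.3 and 15.7 units in JQ1-VHL nuclei, against 88.1 to 263 units in DMSO nuclei. Its change was -2.17 ± 0.90 (log2, limma adjusted p = 0.048). EIF4A3, the helicase that clamps the complex on RNA, had 453, 616 and 228 units in JQ1-VHL nuclei, against 882, 511 and 523 units in DMSO nuclei. The EIF4A3 groups overlapped and its change of -0.63 ± 0.80 (log2, limma adjusted p = 0.49) was not called. MAGOH had 236, 372 and 96.5 units in JQ1-VHL nuclei, against 539.6, 392 and 375 units in DMSO nuclei. Its groups just missed each other, and its change of -1.07 ± 0.81 (log2, limma adjusted p = 0.25) was not called.

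Of the TREX core, THOC7, a small subunit of the THO assembly, had 0, 1.94 and 0 units in JQ1-VHL nuclei and 44.2, 11.2 and 7.52 units in DMSO nuclei. THOC7 rested on 3 reads over the JQ1-VHL nuclear libraries and 90 over the DMSO ones, a scaled ratio of 0.0309 with a 95% counting interval of 0.00626 to 0.0932. Its groups did not overlap, and the change was called (limma adjusted p = 0.014). THOC3, which holds a WD repeat fold, had 10.1, 7.75 and 0 units in JQ1-VHL nuclei and 72.1, 36.5 and 40.9 units in DMSO nuclei, with no overlap. Its change was -3.40 ± 1.13 (log2, limma adjusted p = 0.016). DDX39A, the helicase most like the TREX helicase DDX39B, had 344, 454 and 82.7 units in JQ1-VHL nuclei and 1445, 513 and 509.8 units in DMSO nuclei. Its change of -1.62 ± 0.84 (log2, limma adjusted p = 0.11) was not called, nor were those of THOC1, THOC2, THOC5 and THOC6, between -2.13 and -0.70.

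Among the adaptors, POLDIP3, which bridges TREX and translation factors, had 201, 296 and 43.7 units in JQ1-VHL nuclei and 1144, 518 and 483 units in DMSO nuclei. The JQ1-VHL values were all lower, with a change of -2.25 ± 0.85 (log2, limma adjusted p = 0.031). ALYREF, the best-studied adaptor, had 106, 115 and 13.3 units in JQ1-VHL nuclei and 538, 184 and 129 units in DMSO nuclei. Its groups did not overlap, and its change was -2.06 ± 0.86 (log2, limma adjusted p = 0.048). ZC3H11A, a zinc finger protein that travels with TREX, had 399, 545 and 149 units in JQ1-VHL nuclei and 2209, 954 and 859 units in DMSO nuclei. ZC3H11A and the adaptor CHTOP missed the threshold (both limma adjusted p = 0.052) and were called with the batch number as a block (adjusted p = 0.039 and 0.038). The block also called PCID2 (adjusted p = 0.031) and THOC6 (adjusted p just under 0.05).

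ENY2, a small subunit that TREX-2 shares with a histone deubiquitinase, had 37.8, 69.7 and 15.7 units in JQ1-VHL nuclei and 215, 141 and 167 units in DMSO nuclei. Its change was -2.27 ± 0.89 (log2, limma adjusted p = 0.036). MCM3AP, the TREX-2 scaffold, had 401, 598 and 268 units in JQ1-VHL nuclei and 648, 475 and 395 units in DMSO nuclei. The MCM3AP groups overlapped, and the change was -0.31 ± 0.82 (log2, limma adjusted p = 0.73). ACIN1, which with RNPS1 and SAP18 forms the peripheral ASAP assembly of the junction, had 376, 439 and 116 units in JQ1-VHL nuclei and 1885, 877 and 818 units in DMSO nuclei. Its change was -2.04 ± 0.82 (log2, limma adjusted p = 0.041).

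UPF2, the bridge between UPF1 and UPF3 proteins, had 63.3, 125 and 24.2 units in JQ1-VHL nuclei and 437, 226 and 199 units in DMSO nuclei. Its change was -2.20 ± 0.89 (log2, limma adjusted p = 0.043). UPF1, the helicase at the centre of nonsense-mediated decay, had 378, 490.1 and 106 units in JQ1-VHL nuclei and 1689, 794 and 616 units in DMSO nuclei. The UPF1 groups did not overlap, but the change of -1.79 ± 0.82 (log2, limma adjusted p = 0.070) was not called. No member of the cap-binding, receptor or cytoplasmic release groups was called. The cap-binding protein gene NCBP1 had 106, 134 and 46.6 units in JQ1-VHL nuclei and 335, 185 and 186 units in DMSO nuclei. The receptor gene NXF1 had 809, 1136 and 264 units in JQ1-VHL nuclei and 1299.5, 743 and 662 units in DMSO nuclei, which overlapped. GLE1, the activator of the DDX19 helicases at the pore, had 166, 257 and 58.9 units in JQ1-VHL nuclei and 639, 283 and 275 units in DMSO nuclei.

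The number of nuclear calls depended on single libraries. Against the 9 calls with all libraries, leaving out JQ1-VHL replicate 3 or DMSO replicate 1 left 1 call. Leaving out DMSO replicate 2 left 3, and leaving out JQ1-VHL replicate 1 or DMSO replicate 3 left 5. Leaving out JQ1-VHL replicate 2 gave 15. edgeR's quasi-likelihood test on the deposited scale called MAGOHB and THOC7, both lower. It called 2578 of all 10191 genes tested lower in the nucleus and 17 higher.

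**Figure D1:**
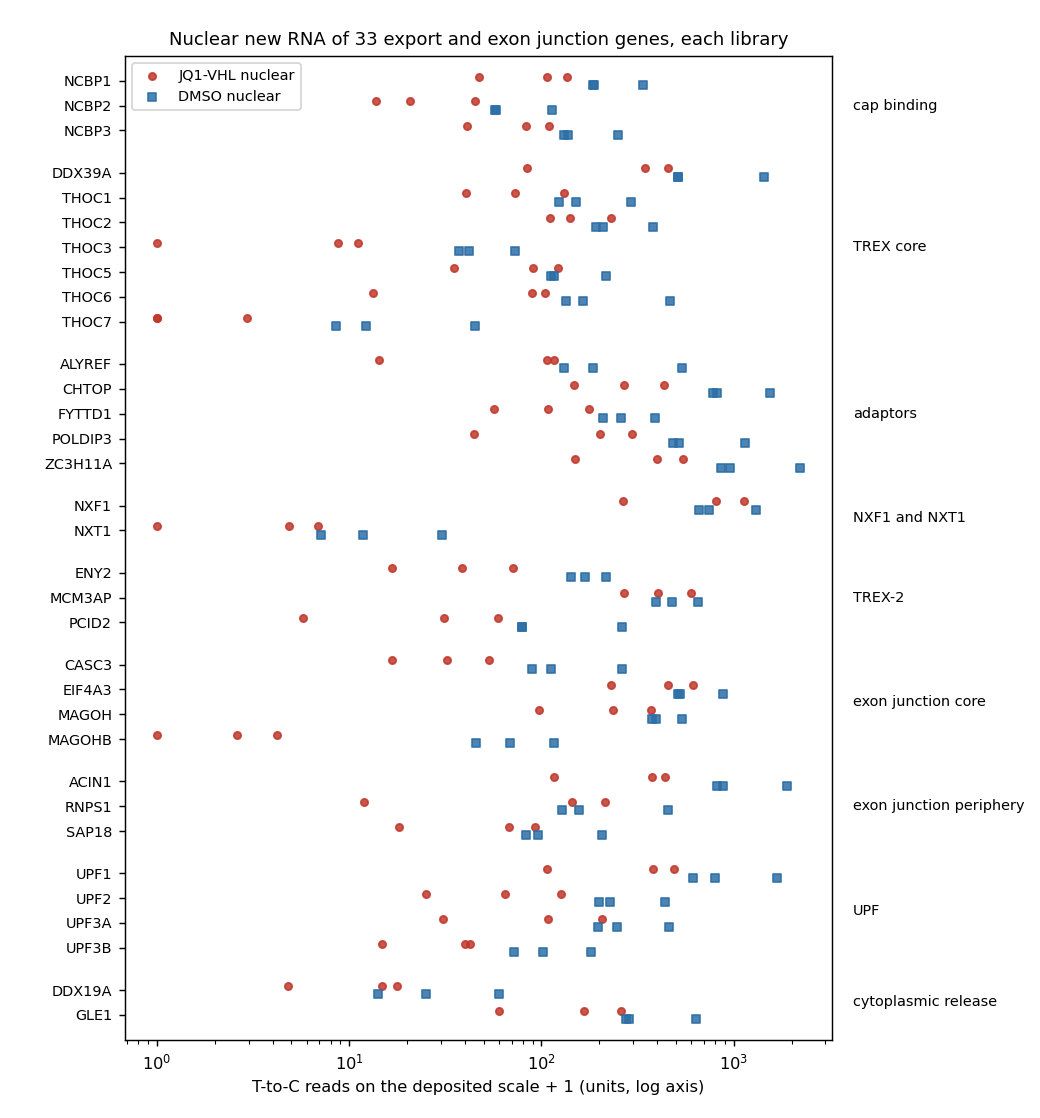
Nuclear T-to-C reads on the deposited scale (units plus 1, log axis) of the 33 tested members, with 1 point for each of the 3 JQ1-VHL and 3 DMSO nuclear libraries, grouped by role. The JQ1-VHL points of 23 members lie below all of their DMSO points, and MAGOHB shows the widest gap, 0 to 3.23 units against 44.7 to 115 units.

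After rescaling, 6 members rose in the nucleus relative to the typical gene and 2 fell, where 15.2% of all genes tested were called higher and 14.4% lower. The median member changed by 0.07 (log2) and the median gene by -0.11. The members that rose were NXF1, MCM3AP, EIF4A3, MAGOH, THOC2 and THOC5, and on the deposited scale all 6 had changes below 0, from -1.07 to -0.31, that were not called. The groups did not overlap in 10 higher and 7 lower members, where 26.1% of all genes were higher without overlap and 30.9% lower. The members that fell were MAGOHB and THOC7, both also called on the deposited scale. The other 7 calls of the deposited scale were not made after rescaling.

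NXF1 encodes the large subunit of the export receptor and lies on chromosome 11 from 62792123 to 62806302 on the minus strand (GRCh38). NXF1 had 1532, 1576 and 1382 rescaled units in JQ1-VHL nuclei, against 537, 649 and 642 in DMSO nuclei. Its groups were far apart relative to their spread, with a rescaled change of 1.30 ± 0.17 (log2, limma adjusted p = 3.6e-05) and 1.51, 1.28 and 1.10 within batches 1, 2 and 3. The unscaled change of NXF1 was -0.47 ± 0.81, so the sign depends on the scale.

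MCM3AP had 759, 829.6 and 1402 rescaled units in JQ1-VHL nuclei, against 268, 415 and 384 in DMSO nuclei. All JQ1-VHL libraries were higher, and replicate 3, the library of fewest reads, was highest. The rescaled change was 1.46 ± 0.22 (log2, limma adjusted p = 0.00021), against -0.31 ± 0.82 on the deposited scale. EIF4A3 had 857, 855 and 1195 rescaled units in JQ1-VHL nuclei, against 364, 446 and 508 in DMSO nuclei. Its rescaled change was 1.13 ± 0.18 (log2, limma adjusted p = 0.00029), against -0.63 ± 0.80 on the deposited scale.

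MAGOH had 446, 516 and 506 rescaled units in JQ1-VHL nuclei, against 223, 343 and 364 in DMSO nuclei, while its copy MAGOHB had 3.02, 4.48 and 0 in JQ1-VHL nuclei, against 47.7, 58.8 and 43.4 in DMSO nuclei. In every batch MAGOH was higher and MAGOHB lower under JQ1-VHL. The rescaled change of MAGOH was 0.69 ± 0.20 (log2, limma adjusted p = 0.018), against -1.07 ± 0.81 on the deposited scale, and that of MAGOHB was -4.17 ± 0.75 (log2, limma adjusted p = 0.00072). THOC2, the large scaffold of THO, rose by 1.06 ± 0.30 (log2, limma adjusted p = 0.013) after rescaling, and THOC5, another THO subunit, by 0.79 ± 0.22 (log2, limma adjusted p = 0.012). Their changes on the deposited scale were -0.70 and -0.95.

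The rescaled nuclear calls were less dependent on single libraries than those of the deposited scale in number: 4 of 8 were kept without DMSO nuclear replicate 1 (MAGOHB, EIF4A3, MCM3AP and NXF1), 6 without JQ1-VHL nuclear replicate 3, and 7 or 8 without any other. Without JQ1-VHL nuclear replicate 1, THOC3 was also called. With the batch number as a block all 8 were kept.

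**Figure D2:**
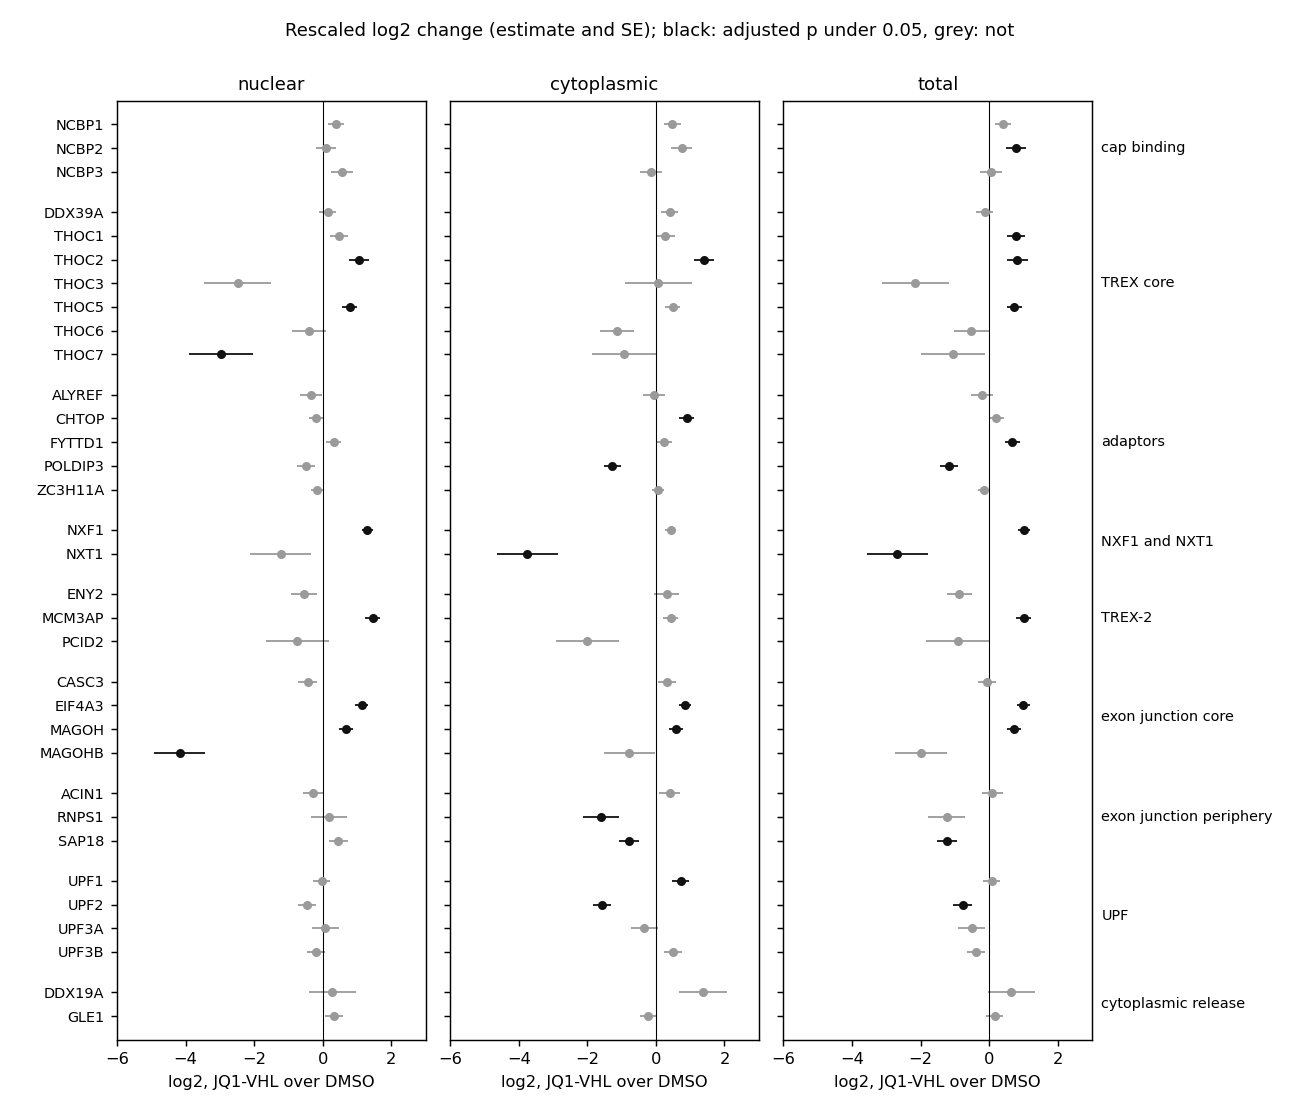
Rescaled log2 change of JQ1-VHL over DMSO (estimate and SE from 3 libraries a group) in nuclear, cytoplasmic and total RNA, with members grouped by role down the page. Black points passed an adjusted p of 0.05: in the nucleus NXF1, MCM3AP, EIF4A3, THOC2, THOC5 and MAGOH lie right of 0, and MAGOHB and THOC7 lie left of it.

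In the cytoplasm, 1 member, NXT1, fell on the deposited scale and none rose, where 3.67% of all genes tested were called lower and 0.226% higher. NXT1, the small partner of NXF1, lies on chromosome 20 from 23350736 to 23354777 on the plus strand (GRCh38), with 1 interval in the table. It had 2.09, 21.5 and 2.79 units in JQ1-VHL cytoplasm, against 107, 17.7 and 286 units in DMSO cytoplasm. JQ1-VHL replicate 2 was above DMSO replicate 2, so the groups overlapped. The change was -3.70 ± 1.13 (log2, limma adjusted p = 0.034), but -5.13, 0.27 and -6.24 within batches 1, 2 and 3, so batch 2 did not show it. The NXT1 call was lost without JQ1-VHL cytoplasmic replicate 1 or 3 or DMSO cytoplasmic replicate 1 or 3, and without DMSO cytoplasmic replicate 2 UPF2 was called beside it. The median member changed by 0.37 (log2) and the median gene by -0.02. The groups did not overlap in 1 member that was higher, THOC2, and in 1 that was lower, THOC7, where 1.37% of all genes were higher and 5.98% lower.

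After rescaling, 5 members rose in the cytoplasm and 5 fell, where 8.82% of all genes tested were called higher and 18.2% lower. The median member changed by 0.28 (log2), against -0.11 for the median gene. The groups did not overlap in 9 higher and 6 lower members, where 13.7% of all genes were higher without overlap and 20.5% lower. THOC2, CHTOP, EIF4A3, UPF1 and MAGOH rose, and NXT1, UPF2, RNPS1, POLDIP3 and SAP18 fell. Of these, the 5 that rose and the 5 that fell had changes of the same sign on the deposited scale, between 0.69 and 1.51 and between -3.70 and -0.69, though NXT1 alone was called there.

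NXT1 had 1.50, 13.4 and 3.45 rescaled units in JQ1-VHL cytoplasm, against 63.5, 58.3 and 100.2 in DMSO cytoplasm. Once rescaled the groups no longer overlapped, and the change was -3.75 ± 0.89 (log2, limma adjusted p = 0.0055) with -4.69, -2.04 and -4.51 within batches 1, 2 and 3. The JQ1-VHL cytoplasmic libraries held 13 NXT1 reads and the DMSO ones 201, a ratio of 0.108 on the deposited scale with a 95% counting interval of 0.0567 to 0.190. Its partner NXF1 had 1733, 1817 and 1398 rescaled units in JQ1-VHL cytoplasm, against 1075, 1145 and 1449 in DMSO cytoplasm. The NXF1 groups overlapped, and its change of 0.43 ± 0.17 (log2, limma adjusted p = 0.058) was called with the batch number as a block (adjusted p = 0.045).

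UPF2 had 75.2, 73.6 and 46.5 rescaled units in JQ1-VHL cytoplasm, against 227, 229.7 and 136 in DMSO cytoplasm. All JQ1-VHL values were below all DMSO values, and the change of -1.58 ± 0.27 (log2, limma adjusted p = 0.00049) was much alike within batches, at -1.58, -1.63 and -1.52. UPF1, which binds UPF2 during decay, had 997, 1082 and 1195 rescaled units in JQ1-VHL cytoplasm, against 847, 871 and 384 in DMSO cytoplasm. DMSO replicate 3 was low, and the change of 0.73 ± 0.24 (log2, limma adjusted p = 0.035) was lost without it, and also without JQ1-VHL cytoplasmic replicate 2 or 3.

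POLDIP3 had 129, 151 and 107 rescaled units in JQ1-VHL cytoplasm, against 259.9, 459 and 249.5 in DMSO cytoplasm, a change of -1.27 ± 0.26 (log2, limma adjusted p = 0.0018). The adaptor CHTOP, which binds ALYREF and stimulates the TREX helicase, moved the other way, with 548, 606 and 917 rescaled units in JQ1-VHL cytoplasm and 358, 436 and 302 in DMSO cytoplasm. Its change was 0.90 ± 0.22 (log2, limma adjusted p = 0.0062). ALYREF stood close to the same level in all 6 libraries, at 333 to 334 rescaled units in JQ1-VHL cytoplasm and 321 to 371 in DMSO cytoplasm, with a change of -0.05 ± 0.32 (log2, limma adjusted p = 0.92).

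EIF4A3 had 4685, 4222 and 5242 rescaled units in JQ1-VHL cytoplasm, against 2382, 2718 and 2761 in DMSO cytoplasm, and MAGOH had 4537, 4522 and 4479 in JQ1-VHL cytoplasm, against 2323, 3487 and 3340.0 in DMSO cytoplasm. Neither gene's groups overlapped. The change of EIF4A3 was 0.85 ± 0.18 (log2, limma adjusted p = 0.0029) and that of MAGOH 0.59 ± 0.20 (log2, limma adjusted p = 0.039). The peripheral proteins RNPS1, a splicing activator, and SAP18, which binds it, fell by 1.59 and 0.79 on the log2 scale (limma adjusted p = 0.032 and 0.045), while the third ASAP gene, ACIN1, had a change of 0.40 ± 0.30 (log2, limma adjusted p = 0.34). THOC2 rose by 1.41 ± 0.30 (log2, limma adjusted p = 0.0025), with 605, 557 and 881 rescaled units in JQ1-VHL cytoplasm and 337, 294 and 159 in DMSO cytoplasm. Of the 10 calls, 6 to 9 were kept without any 1 cytoplasmic library: MAGOH and SAP18 were lost without any of the JQ1-VHL replicates and without DMSO replicate 1, and RNPS1 without JQ1-VHL replicate 1 or 3 or DMSO replicate 1 or 2.

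In total RNA no member was called on the deposited scale, where limma called 0.245% of all genes tested higher and 2.79% lower. Of the 33 members, 3 had an unadjusted p under 0.05, as had 1714 of all 10191 genes tested. On the deposited scale edgeR also called no member, and 233 of all 10191 genes tested. The groups did not overlap in 5 members, THOC3, POLDIP3, MAGOHB, NXT1 and SAP18, all lower, where 24.8% of all genes were lower without overlap and 1.26% higher. With the batch number as a block NXT1 was called (log2 change -3.10, adjusted p = 0.048). After rescaling, 9 members rose and 4 fell, where 15.4% of all genes tested were called higher and 16.3% lower. Groups did not overlap in 10 higher and 7 lower members, where 28.5% of all genes were higher without overlap and 31.5% lower. EIF4A3, NXF1, MCM3AP, THOC2, THOC1, NCBP2, THOC5, MAGOH and FYTTD1 rose, and NXT1, SAP18, POLDIP3 and UPF2 fell.

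In total RNA, NXF1 had 1466, 1580.0 and 1440.0 rescaled units under JQ1-VHL, against 720.4, 740.3 and 761 under DMSO, and NXT1 had 6.26, 3.68 and 0 under JQ1-VHL, against 23.5, 21.6 and 15.1 under DMSO. The subunits of the receptor lay on opposite sides of the typical gene in total RNA, with changes of 1.01 ± 0.17 for NXF1 (log2, limma adjusted p = 0.00058) and -2.68 ± 0.89 for NXT1 (log2, limma adjusted p = 0.029). Without rescaling they were 0.61 ± 0.81 and -3.10 ± 1.13, neither called. The NXT1 call rested on 9 reads under JQ1-VHL and 91 under DMSO.

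EIF4A3 had 2263, 2902 and 2485 rescaled units in JQ1-VHL total RNA, against 1147, 1382 and 1284 in DMSO total RNA. Its groups did not overlap, with a change of 1.00 ± 0.18 (log2, limma adjusted p = 0.0012). POLDIP3 had 150.4, 135 and 160.2 rescaled units in JQ1-VHL total RNA, against 361, 298 and 346 in DMSO total RNA, a change of -1.17 ± 0.26 (log2, limma adjusted p = 0.0035) that was -1.26, -1.14 and -1.10 within batches 1, 2 and 3. SAP18 fell by 1.23 ± 0.28 on the log2 scale (limma adjusted p = 0.0044). MAGOHB stood at the threshold (log2 change -2.00 ± 0.75, limma adjusted p = 0.05003) and was called with the batch number as a block (adjusted p = 0.020), as was RNPS1 (adjusted p = 0.017). EIF4A3, NXF1, MCM3AP, POLDIP3 and SAP18 were called without any 1 total library. The other calls were less stable: 6 of the 13 remained without JQ1-VHL total replicate 3, DMSO total replicate 1 or DMSO total replicate 2, 7 without JQ1-VHL total replicate 2 or DMSO total replicate 3, and 11 without JQ1-VHL total replicate 1.

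Across the fractions, EIF4A3, MAGOH and THOC2 were called higher after rescaling in the nucleus, cytoplasm and total RNA, and no member was called lower in all of them. NXT1, POLDIP3, UPF2 and SAP18 were called lower in the cytoplasm and in total RNA. The fractions come from separate libraries, but the total RNA holds both compartments, so these are not independent.

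**Figure D3:**
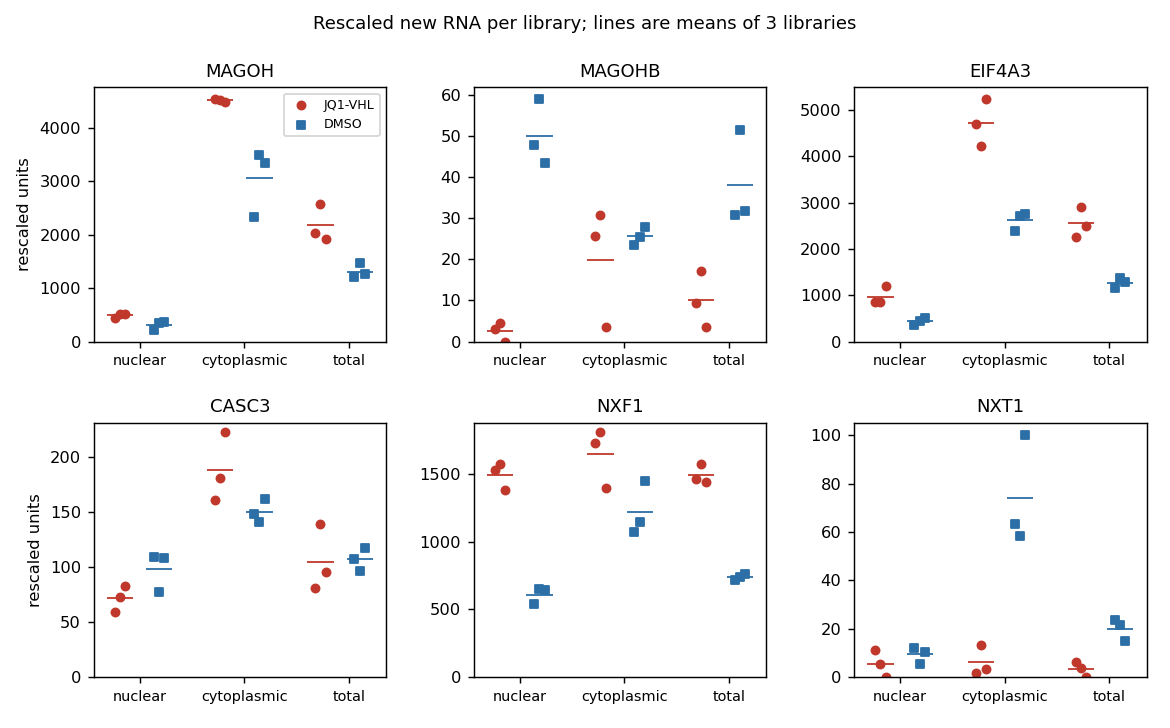
Rescaled units (set against the typical gene of each fraction) in each of the 3 JQ1-VHL and 3 DMSO libraries of nuclear, cytoplasmic and total RNA, with a line at each mean, for 4 genes of the junction core and both receptor subunits. MAGOH and MAGOHB part in the nucleus, 446 to 516 against 223 to 364 for MAGOH and 0 to 4.48 against 43.4 to 58.8 for MAGOHB, and in the cytoplasm all NXT1 points under JQ1-VHL lie below those under DMSO, while the NXF1 points overlap.

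Promoter sequence is shown for members called in the same direction in at least 2 fractions after rescaling. Of 34 members, 28 had 1 or more windows of 300 bases (250 before and 50 after the start of a transcript) in RefSeq (GRCh38.p14), 40 windows in all. Those shown are the windows of such members that have a single start and at least 150 bases outside annotated exons, cut where the first exon begins. The first bases after the start also had to be found in a transcript of the gene. MCM3AP met the other conditions but not this one and is not shown. Capitals mark matches to 6 short motifs searched on both strands, which are spelled out after the sequences. THOC2 (chrX:123733057-123733302, minus strand) rose in all 3 fractions, and NXT1 (chr20:23350541-23350735, plus strand) and POLDIP3 (chr22:42614963-42615133, minus strand) fell in the cytoplasm and in total RNA.
THOC2: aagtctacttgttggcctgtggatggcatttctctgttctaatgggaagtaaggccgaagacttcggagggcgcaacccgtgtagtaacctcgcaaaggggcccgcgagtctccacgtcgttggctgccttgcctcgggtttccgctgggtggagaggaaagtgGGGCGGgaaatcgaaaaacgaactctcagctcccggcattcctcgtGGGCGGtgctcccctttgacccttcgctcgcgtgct
NXT1: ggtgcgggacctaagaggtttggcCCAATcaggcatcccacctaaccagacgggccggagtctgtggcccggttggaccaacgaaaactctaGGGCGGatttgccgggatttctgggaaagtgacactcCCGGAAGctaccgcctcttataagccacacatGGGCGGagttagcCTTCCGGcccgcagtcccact
POLDIP3: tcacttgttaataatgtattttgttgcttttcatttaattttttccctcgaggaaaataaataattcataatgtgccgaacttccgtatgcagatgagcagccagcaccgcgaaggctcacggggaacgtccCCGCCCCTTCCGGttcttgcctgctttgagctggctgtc
The NXT1 stretch holds CCAAT 226 bases before the start, GGGCGG 158 and 89 bases before it, and CCGGAAG on either strand 121 and 76 bases before it. The THOC2 stretch holds GGGCGG 86 and 40 bases before the start. The POLDIP3 stretch holds GGGCGG and CCGGAAG side by side on the other strand, 118 and 112 bases before the start. GGGCGG was in 32 of 40 member windows and in 45% of all 35116 windows, CCGGAAG in 13 of 40 and 10.3%, CCAAT in 15 of 40 and 34.6%, TGACGTCA in 5 of 40 and 1.85%, CACGTG in 3 of 40 and 7.26%, and TATAAA in 3 of 40 and 11.5%. Windows of 1 gene can overlap, a match is not a bound site, and no factor was measured.

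The difference between the nuclear and the cytoplasmic effect of JQ1-VHL was called in no member by limma, on either scale, where 0% of all genes were called in either direction on the deposited scale and 1.53% higher and 1.1% lower after rescaling. On the deposited scale 8 of 33 members had an unadjusted p under 0.05, as had 1564 of all 10191 genes tested. After rescaling 9 members and 2020 genes had one. The values nearest the threshold after rescaling were those of NXF1 (0.86 ± 0.23, log2, limma adjusted p = 0.053), CHTOP (-1.08 ± 0.31, log2, limma adjusted p = 0.062), MCM3AP (1.02 ± 0.32, log2, limma adjusted p = 0.085) and MAGOHB (-3.40 ± 1.06, log2, limma adjusted p = 0.089). With the batch number as a block NXF1, CHTOP and MAGOHB were called (each adjusted p = 0.038). edgeR with TMM scaling called MAGOHB and CHTOP, and DESeq2 called 7 members, where the shares of all genes called are not given here. Without JQ1-VHL nuclear replicate 3 the rescaled fit called 4 members, SAP18, CHTOP, NXF1 and RNPS1. It called UPF2 and NXF1 without DMSO cytoplasmic replicate 3, CHTOP without JQ1-VHL cytoplasmic replicate 1 and MAGOHB without JQ1-VHL cytoplasmic replicate 3.

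The members differed widely in how their new RNA was split between nucleus and cytoplasm. Under JQ1-VHL, 1 member was called higher in the nucleus and 14 lower on the deposited scale, where 3.01% of all genes were called higher and 28.8% lower. Under DMSO, 2 were called higher and 3 lower, where 14.7% of all genes were higher and 5.92% lower. The median member stood at -1.67 (log2, nuclear over cytoplasmic) under JQ1-VHL and -0.13 under DMSO, and the median gene at -0.82 and 0.63. After rescaling, 8 members were higher and 13 lower under JQ1-VHL, with 36.7% and 27.1% of all genes, and 7 higher and 12 lower under DMSO, with 29.8% and 25.9% of all genes. Fractions were prepared separately, so these ratios rank genes and do not give the share of a transcript in the nucleus.

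THOC6, a WD repeat subunit at the end of the THO dimer, leaned most to the nucleus. Under DMSO it had 468, 164 and 134 units in the nucleus and 23.1, 7.73 and 27.5 in the cytoplasm, and under JQ1-VHL it had 88.8, 103 and 12.4 in the nucleus and 6.28, 12.9 and 5.59 in the cytoplasm. Nuclear values were higher in every pair of same-numbered libraries, and the cytoplasm held 13 THOC6 reads under JQ1-VHL and 38 under DMSO. The log2 ratios were 2.52 ± 0.99 under JQ1-VHL (limma adjusted p = 0.037) and 3.59 ± 0.99 under DMSO (limma adjusted p = 0.0046). The THOC6 call under JQ1-VHL was lost without JQ1-VHL nuclear replicate 1 or 2 or cytoplasmic replicate 1 or 3, and leaving out nuclear replicate 1 ended the call under DMSO. THOC6 overlaps HCFC1R1 and BICDL2 on the opposite strand, and the strand counted is not stated. DDX19A, a helicase that strips export proteins at the cytoplasmic face of the pore, had 59.0, 24.1 and 13.2 units in DMSO nuclei and 8.26, 1.10 and 0 in DMSO cytoplasm (log2 ratio 3.37 ± 1.13, limma adjusted p = 0.022). The DDX19A cytoplasmic values came from 14 reads under JQ1-VHL and 7 under DMSO, and it has a near copy in DDX19B. THOC3 had 72.1, 36.5 and 40.9 units in DMSO nuclei and 16.5, 0.552 and 11.0 in DMSO cytoplasm (log2 ratio 2.82 ± 1.13, limma adjusted p = 0.057), and was called with the batch number as a block (adjusted p = 0.030). Those were the 3 highest of the 33 members under DMSO.

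The lowest members were the junction core gene MAGOH, the receptor subunit NXT1 and the adaptor FYTTD1. MAGOH had 539.6, 392 and 375 units in DMSO nuclei and 3926, 1057 and 9549 in DMSO cytoplasm. Its ratio was -4.75 ± 0.81 under JQ1-VHL (log2, limma adjusted p = 3.6e-07) and -2.98 ± 0.81 under DMSO (log2, limma adjusted p = 0.0038). FYTTD1, which can stand in for ALYREF, had 389.8, 258 and 208 units in DMSO nuclei and 1612, 503 and 3085 in DMSO cytoplasm, with ratios of -4.07 ± 0.82 under JQ1-VHL (log2, limma adjusted p = 1.7e-05) and -2.29 ± 0.82 under DMSO (log2, limma adjusted p = 0.032). NXT1 had 29.5, 6.17 and 10.8 units in DMSO nuclei and 107, 17.7 and 286 in DMSO cytoplasm, with a ratio of -2.60 ± 1.13 (log2, limma adjusted p = 0.080) that was called with the batch number as a block (adjusted p = 0.046). EIF4A3 was also lower in the nucleus under DMSO (log2 ratio -2.26 ± 0.80, limma adjusted p = 0.030).

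Within the junction core all 4 tested genes were lower in the nucleus than in the cytoplasm under JQ1-VHL, on both scales, though on the deposited scale MAGOHB was not called without JQ1-VHL nuclear replicate 3 or cytoplasmic replicate 1 or 2, and after rescaling not without JQ1-VHL nuclear replicate 3. Under DMSO MAGOH and EIF4A3 were, whereas MAGOHB had a ratio of 1.22 ± 1.09 (log2, limma adjusted p = 0.45) and CASC3 of -0.31 ± 0.90 (log2, limma adjusted p = 0.84). Among the UPF genes, after rescaling, UPF3A was higher in the nucleus and UPF3B lower under either treatment, with ratios of 2.01 and -1.63 under JQ1-VHL and 1.60 and -0.95 under DMSO (log2, limma adjusted p between 3.7e-05 and 0.0055). UPF3A and UPF3B are paralogues that compete for UPF2. On the deposited scale the ratios of UPF3A were 0.48 under JQ1-VHL and 1.91 under DMSO, and those of UPF3B were -3.14 and -0.64, of which only the UPF3B ratio under JQ1-VHL was called. Of the 5 calls under DMSO on the deposited scale, MAGOH was kept without any 1 library. Leaving out nuclear replicate 1, 2 or 3 under DMSO left 1, 2 or 3 calls in that order, and leaving out cytoplasmic replicate 2 gave 9. Under JQ1-VHL the 15 calls became 8 without nuclear replicate 3, and 9 or 10 when cytoplasmic replicate 1 or 2 was left out.

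**Figure D4:**
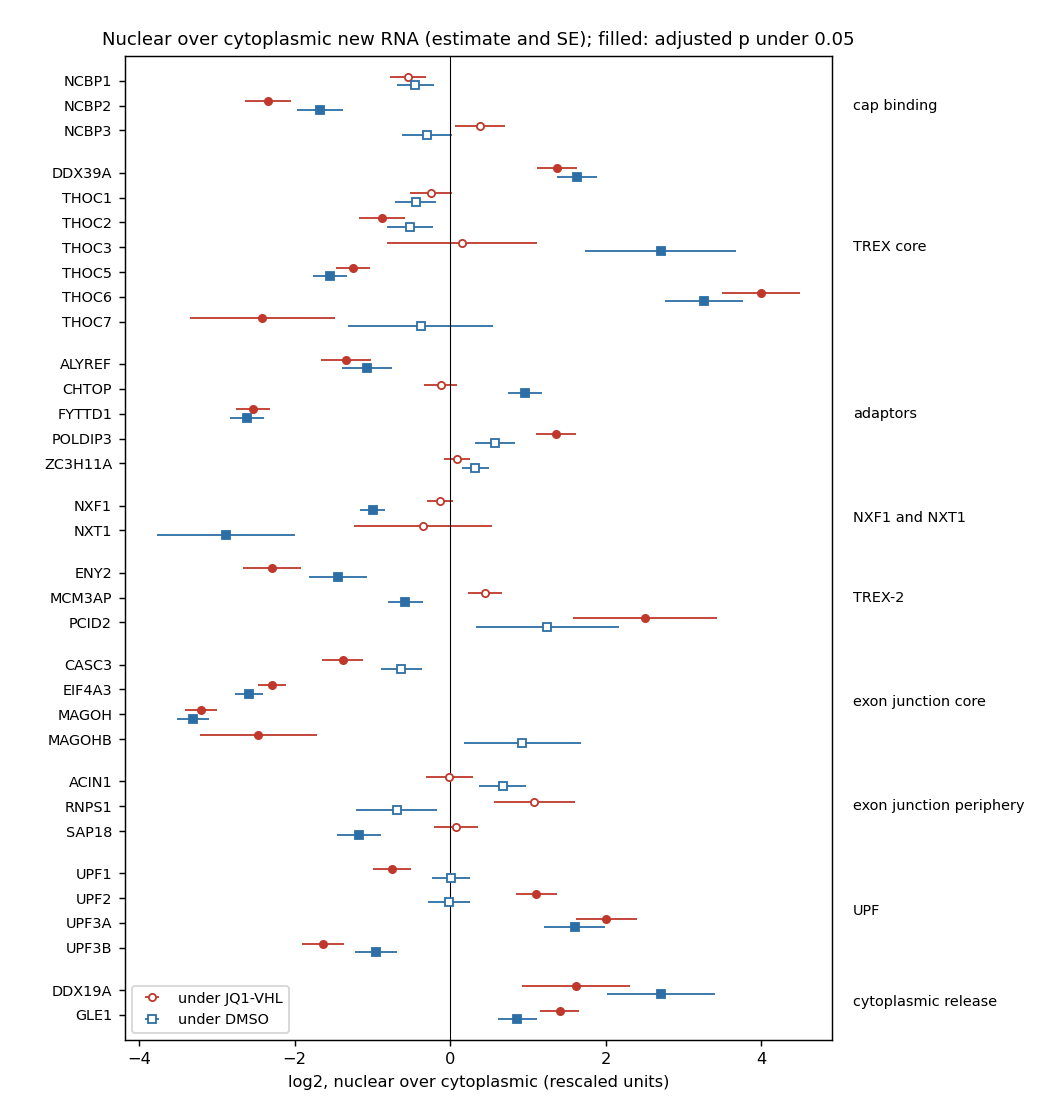
Log2 ratio of nuclear over cytoplasmic rescaled units (estimate and SE, 3 libraries a group) under JQ1-VHL and under DMSO for the 33 tested members by role, filled where the adjusted p is under 0.05. THOC6 lies farthest right under both treatments (rescaled 4.00 under JQ1-VHL and 3.26 under DMSO) and MAGOH farthest left (-3.21 under JQ1-VHL and -3.31 under DMSO), while MAGOHB is at -2.47 under JQ1-VHL and 0.93, not called, under DMSO.

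The table splits genes into numbered intervals, which allowed a test of whether an interval changed against the rest of its gene. Intervals with a mean of at least 30 units were tested, 113 of them in 24 members. On the deposited scale limma's diffSplice called none of the member intervals in the nucleus, where 0.0274% of all 21871 intervals were called, and 2 had an unadjusted p under 0.05. After rescaling it called 5 intervals in 4 members, UPF1, ZC3H11A, EIF4A3 and CHTOP, where 5.7% of all intervals were called. edgeR's diffSpliceDGE called 3, in UPF1, ZC3H11A and EIF4A3, where 3.68% of all intervals were called. In the cytoplasm and in total RNA no member interval was called on the deposited scale, where 0.0732% and 0.0549% of all intervals were called. After rescaling 4 intervals in 3 members were called in the cytoplasm and 7 in 5 members in total RNA, where 1.97% and 3.34% of all intervals were called. The intervals described next were chosen after their values were seen.

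The intervals numbered 23 to 26 of UPF1 held 60.5% to 87.4% of the gene's T-to-C reads in JQ1-VHL nuclei, against 37.5% to 47.0% in DMSO nuclei. In the cytoplasm they held 94.4% to 98.4% under JQ1-VHL and 81.4% to 91.5% under DMSO, so that JQ1-VHL libraries were above DMSO libraries in both compartments. None of the intervals 23 to 26 was called by diffSplice, and interval 25 had an adjusted p of 0.26 in the nucleus after rescaling. How many of all intervals differ without overlap is not given here. Interval 19 of UPF1 moved the other way and held 1.35% to 4.64% in JQ1-VHL nuclei and 7.77% to 11.4% in DMSO nuclei, with a rescaled log2 difference from the other intervals of -2.26 (diffSplice adjusted p = 0.00049). In ZC3H11A, interval 16 held 26.3% to 35.4% in JQ1-VHL nuclei and 12.4% to 15.3% in DMSO nuclei (rescaled log2 difference 1.61, diffSplice adjusted p = 0.027). ZC3H11A intervals 18 to 20 held 11.2% to 17.3% in JQ1-VHL nuclei and 24.9% to 27.8% in DMSO nuclei. ZC3H11A shares its locus and strand with ZBED6, and reads of the genes cannot be told apart.

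EIF4A3 interval 1 held 1.88% to 3.88% in JQ1-VHL nuclei and 6.26% to 10.7% in DMSO nuclei (rescaled log2 difference -1.42, diffSplice adjusted p = 0.00018), and it was called lower in cytoplasmic and total RNA as well. The EIF4A3 gene as a whole had risen after rescaling, so its intervals did not move alike. In CHTOP, which has 3 intervals, interval 1 held 14.8% to 16.8% in JQ1-VHL nuclei and 7.82% to 8.74% in DMSO nuclei, and interval 3 held 2.59% to 12.9% in JQ1-VHL nuclei and 15.9% to 18.7% in DMSO nuclei.

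Other intervals differed in share between the compartments. CHTOP interval 2 held 71.7% to 80.6% in JQ1-VHL nuclei and 72.6% to 75.5% in DMSO nuclei, but 30.8% to 32.9% in JQ1-VHL cytoplasm and 17.6% to 42.1% in DMSO cytoplasm. MCM3AP interval 7 held 51.6% to 58.6% in JQ1-VHL nuclei, 41.0% to 45.1% in DMSO nuclei, 11.2% to 19.5% in JQ1-VHL cytoplasm and 9.13% to 16.4% in DMSO cytoplasm. The nuclear shares of MCM3AP interval 7 did not overlap between treatments either, and were higher under JQ1-VHL. diffSplice did not call this interval on either scale, and the share of all intervals without overlap is not given here. Whether an interval counts spliced reads, unspliced reads or both is not stated in the sources used here, so a share is a share of counted reads and not of an isoform. In 14 of the 34 members the highest interval number equalled the number of gaps between annotated exon blocks, and in the others it did not. What an interval covers was not tested.

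**Figure D5:**
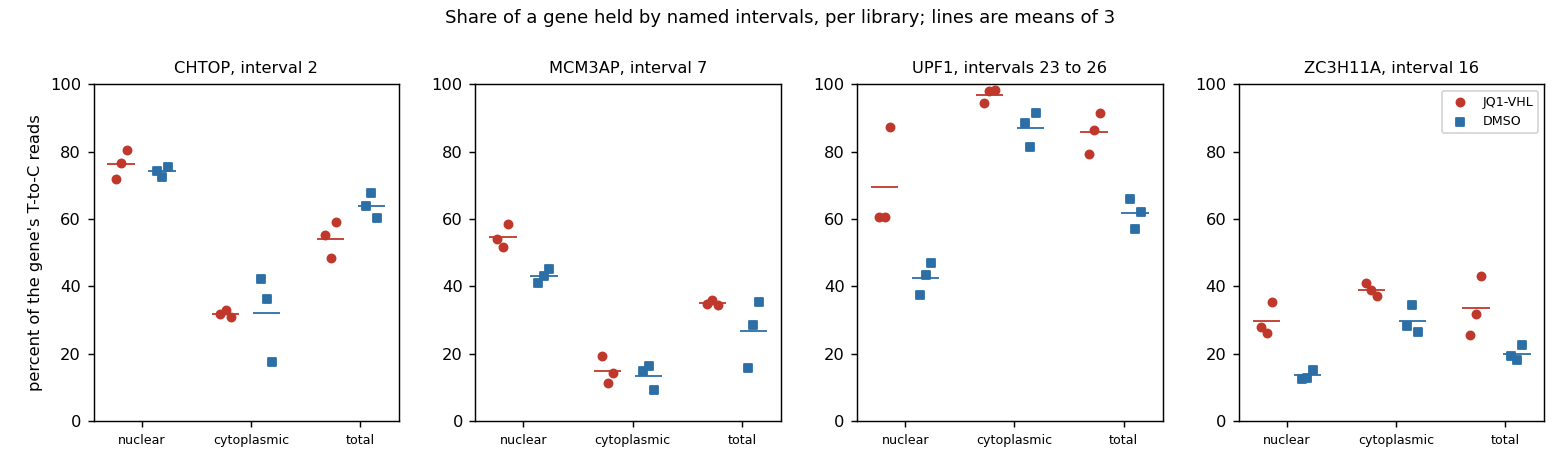
Percent of a gene's T-to-C reads held by named intervals in each library of nuclear, cytoplasmic and total RNA under JQ1-VHL and DMSO, with lines at the means of 3 libraries. In the nucleus the shares under JQ1-VHL lie above those under DMSO for UPF1 (60.5% to 87.4% against 37.5% to 47.0%), MCM3AP and ZC3H11A, while CHTOP interval 2 differs between compartments. The UPF1 and MCM3AP intervals drawn were not called by diffSplice.

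The wider pathway was covered by related genes. Of 13 tested genes of nonsense-mediated decay and junction assembly, 5 fell in the nucleus on the deposited scale and none rose, and after rescaling 4 fell and 2 rose. Of all genes tested in the nucleus, 33.7% were called lower on the deposited scale, and 14.4% lower and 15.2% higher after rescaling. The largest changes on the deposited scale were those of ICE1 (-3.56), PYM1, which recycles junction complexes (-3.46), and the SMG complex subunit gene SMG9 (-3.23), and they were -1.96, -1.98 and -1.49 after rescaling (log2, limma adjusted p from 0.0067 to 0.036). CWC22, which loads EIF4A3 on the spliceosome, also fell after rescaling, with a log2 change of -1.35 ± 0.30 (limma adjusted p = 0.0033), while EIF4A3 rose; it was chosen after its values were seen. The median of this list was -1.73 on the deposited scale, against -1.82 for all genes.

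Of 12 tested genes of other export adaptors, cap and tail proteins, 4 fell in the nucleus on the deposited scale, a share near the 33.7% of all genes. After rescaling 3 rose and 1 fell, where 15.2% of all genes rose and 14.4% fell. RBM15, an export factor of the spen family, was the one called lower in all 3 fractions on the deposited scale, by -3.41 in the nucleus, -3.80 in the cytoplasm and -4.86 in total RNA (log2, limma adjusted p = 0.0067, 0.0092 and 0.00089). After rescaling the RBM15 changes were -1.77, -3.90 and -4.44, all called. SEM1, a small subunit that TREX-2 shares with the proteasome, and SRRT, which binds the cap complex, rose most in the nucleus after rescaling, by 0.89 and 0.81 (log2, limma adjusted p = 0.048 and 0.00074).

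Of 9 tested pore proteins, RAE1 fell in the nucleus on the deposited scale (-2.55 ± 0.88, log2, limma adjusted p = 0.020) and none rose, where 33.7% of all genes fell. After rescaling 5 rose and none fell, where 15.2% of all genes rose and 14.4% fell, with NUP153 (1.27), NUP214 (1.13) and NUP98 (0.76) the largest (log2, limma adjusted p from 0.0050 to 0.0064). NUP153 then fell by 1.48 on the log2 scale in the cytoplasm (limma adjusted p = 0.0021), and it was the pore gene in which the nuclear and cytoplasmic effects differed, by 2.74 ± 0.43 (log2, limma adjusted p = 0.0022). On the deposited scale no gene of any list was called for that difference.

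Several members share sequence or locus with other genes. THOC1, THOC6, THOC7, ALYREF, FYTTD1, PCID2, ENY2 and ACIN1 overlap a protein-coding gene on the opposite strand and THOC5, ZC3H11A and DDX19A one on the same strand, and the strand counted is not stated in the sources used here. Reads of those genes and their neighbours cannot be told apart.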

How the data were processed

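Full-length SLAM-seq was measured in 18 libraries, 3 in each of 6 groups. The authors deposited one table of a signal per numbered gene interval, T-to-C read counts divided by an ERCC factor of the library. Per the submitters' processing notes, Trimmomatic 0.39, HISAT2, HTSeq and DESeq2 were used with hg19 (GRCh37) and dm3. The strand counted is not given in the sources used here. Whole reads were recovered for 100% of values (tolerance 0.01), and edgeR on those reads with the deposited scale called 2595 genes in the nucleus, 241 in the cytoplasm and 233 in total RNA.

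Intervals were summed per gene, and genes with a mean of at least 10 units over the libraries were tested with limma 3.58.1 (R 4.3.3; trend and robust variance, 6 group means, log2(units + 1), Benjamini-Hochberg 0.05). Intervals with a mean of at least 30 units were tested with diffSplice. Alternatives used edgeR 4.0.16, DESeq2 1.42.0, another pseudocount, other filters, a batch block and each library left out. Scripts were tested on simulated data, in which libraries carried no shared deviation of scale. That feature of the deposited values was therefore not covered. Values per gene had been assumed in the design, and the table holds intervals.

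For the deposited values the deviation of a library was largely common to its genes, so calls there carry more certainty than 3 libraries can give. An exact permutation test of 3 against 3 cannot go below 0.1. Counting intervals cover counting error only, and the sources used here state no molecular identifiers. The labels give the replicate number as a batch, which is where the pairing comes from. Correlations over genes of the deviations in same-numbered libraries were 0.27, -0.14 and 0.29 in the nucleus. They were 0.06, -0.05 and 0.02 in the cytoplasm and 0.22, 0.08 and 0.16 in total RNA. Gene by gene, same-numbered libraries thus did not deviate together in every pair. These correlations do not cover the deviation common to all genes of a library.

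The members and the related lists were chosen with earlier results of these data known. Values in every library were given for members called on the deposited scale under JQ1-VHL against DMSO, for the member of highest mean in each role, for NXF1, ALYREF, EIF4A3 and UPF1, and for the 3 highest and 3 lowest nuclear over cytoplasmic ratios under DMSO. Members called after rescaling were added. At most 3 related genes per list, comparison and scale were named, those of largest change, except that CWC22 was added after its values were seen. Coordinates are from GENCODE 29 (GRCh38), which is not the build of the files.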

Additional observations from a re-analysis of the deposited data

How the results depend on the processing

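On the deposited scale the nuclear count of 9 members became 5 with a filter at a mean of 50 units and 2 with edgeR. There edgeR called 2595 of all 10191 genes tested. The cytoplasmic count of 1 became 0 with a pseudocount of 0.1, with the filter at 50 or with edgeR, 10 after rescaling, 13 with TMM and 16 with DESeq2. The total count of 0 became 13 after rescaling, 13 with TMM and 16 with DESeq2. Of all 10191 genes tested, TMM called 2987 and DESeq2 3625 in the cytoplasm. In total RNA they called 3809 and 4223, so the counts rose for all genes as well. The count for the difference of effects became 2 with TMM and 7 with DESeq2, and that for nuclear against cytoplasmic under DMSO, 5, became 19 after rescaling and 21 with TMM or DESeq2. For these comparisons the shares of all genes called with TMM and DESeq2 are not given here. Members with an interval called in the nucleus were 4 after rescaling and 3 with diffSpliceDGE, against 0. The causes were not tested, except that a higher filter leaves fewer genes to test.

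The pairing by batch number, as a block, gave 13 nuclear calls, 1 cytoplasmic, 1 total, 0 for the difference of effects, 15 for nuclear against cytoplasmic under JQ1-VHL and 7 under DMSO. With rescaling and the block, which was chosen after seeing the data, the counts were 8, 11, 15, 3, 23 and 20. The block changed no call beyond those given in the report for drug comparisons.

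Leaving out 1 library in turn gave 1 to 15 nuclear calls, 0 to 2 cytoplasmic, 0 total and 0 for the difference of effects. It gave 8 to 14 calls for nuclear against cytoplasmic under JQ1-VHL and 1 to 9 under DMSO. For intervals this was done in the nucleus on the deposited scale only, and gave 0 members with an interval called. The interval calls made after rescaling were not tested in this way. After rescaling, an alternative chosen after seeing the data, the ranges were 4 to 8, 7 to 11, 6 to 13, 0 to 4, 18 to 20 and 16 to 22.

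Signs turned with the scaling. The nuclear log2 changes after rescaling, with TMM and with DESeq2 were 0.79, 0.72 and 0.90 for THOC5, 1.06, 1.04 and 1.24 for THOC2, 1.13, 1.06 and 1.25 for EIF4A3, 1.46, 1.40 and 1.60 for MCM3AP, 1.30, 1.23 and 1.41 for NXF1, and 0.69, 0.59 and 0.77 for MAGOH. The nuclear over cytoplasmic ratios under JQ1-VHL were 1.36, 1.43 and 1.50 for POLDIP3, 1.41, 1.42 and 1.49 for GLE1, 1.37, 1.40 and 1.47 for DDX39A and 1.11, 1.12 and 1.20 for UPF2. RNPS1 had 1.39 with TMM and 1.45 with DESeq2, and MCM3AP 0.59 with DESeq2. The differences of effects with DESeq2 were 1.27 for SAP18, 1.09 for UPF2, 1.00 for MCM3AP, 0.82 for NXF1 and 1.97 for RNPS1. After rescaling UPF1 under DMSO had a ratio of -0.43 without DMSO cytoplasmic replicate 3. Depth limits MAGOHB, THOC7, THOC3, THOC6, NXT1 and DDX19A, which had under 20 reads in a group.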

Other observations

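SARNP, an adaptor that binds the TREX helicase, was below the filter. It had 0.532, 3.23 and 0.475 units in JQ1-VHL nuclei, from 7 reads, against 4.09, 3.93 and 2.35 units in DMSO nuclei, from 17 reads. JQ1-VHL replicate 2 was above DMSO replicate 3, so the nuclear groups overlapped, with a ratio over the summed reads of 0.382 and a 95% counting interval of 0.134 to 0.969. In the cytoplasm SARNP had 8.38, 12.9 and 2.79 units under JQ1-VHL and 21.5, 2.21 and 16.5 units under DMSO, which overlapped. In total RNA it had 5.50, 1.20 and 2.40 units under JQ1-VHL and 16.1, 4.39 and 3.80 units under DMSO, which overlapped as well. SARNP overlaps GDF11 on the opposite strand and AC023055.1 on the same strand.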
